A study of Homo sapiens with 6 samples.

Results

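The genes described here are 57 listed interferon response genes and members of the apolipoprotein L (APOL) family, measured in MDA-MB-231 cells with and without knock-down of HMGA1, a chromatin protein. MDA-MB-231 is an established human cell line from a triple-negative breast cancer. Cells received a control siRNA or siRNA to HMGA1 with a lipid reagent, and RNA taken at 48 hours was hybridized to Affymetrix human exon arrays. There were 3 separate knock-downs and 3 control cultures, 1 array each. The titles and genotype entries write shHMGA1, while the source names, the design text and the study's methods give siRNA, and it is called HMGA1 siRNA here. The study's methods describe the controls of this comparison as given vector RNA, and they are called control siRNA here. Both groups had therefore received RNA with a transfection reagent, and no untransfected cells were analysed here. A gene was used where a transcript of the array is annotated to it alone, which held for 52 of the 57 listed genes, out of 14220 genes with such a transcript. USP18, GBP1, GBP2 and PSMB9 are listed only on transcripts shared with another gene and were left out, and STAT2 was not analysed here.

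Interferons are secreted proteins by which cells signal the presence of viral nucleic acids. Sensors such as RIG-I (gene RIGI) and MDA5 (IFIH1) detect foreign or double-stranded RNA in the cytoplasm and lead to interferon production through IRF factors. Interferon binds receptors on the same or neighbouring cells (IFNAR1 with IFNAR2, or IFNGR1 with its partner chain), and STAT and IRF factors then enter the nucleus. There they bind the interferon-stimulated response element (ISRE) or the gamma-activated site (GAS) and raise the expression of antiviral effectors and of genes for antigen processing. The APOL genes lie together on chromosome 22, and interferon is known to raise the expression of several of them.

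HMGA1 is listed on 2 transcripts, each shared with another gene. On the one shared with the pseudogene HMGA1P8 it was at 10.11, 10.25 and 10.35 on the control arrays and at 9.81, 9.65 and 9.76 on the HMGA1 siRNA arrays, in log2 units as in all values below. All 3 HMGA1 siRNA arrays thus lay below all 3 control arrays, a difference of -0.50 (standard error, SE, 0.10) with an adjusted p of 0.806 in limma. On the one shared with APOE the groups overlapped, with a difference of -0.12 (SE 0.13). The groups were compared across all 22011 transcripts with the moderated test of limma, and 0 transcripts (0%) passed an adjusted p of 0.05. At an unadjusted p under 0.05, 384 transcripts (1.74%) were higher and 344 (1.56%) lower with HMGA1 siRNA. Array medians ran from 8.28 to 8.38, and arrays correlated at 0.982 to 0.995. Over all transcripts, HMGA1 siRNA replicate 2 held the lowest value in 37.7%, the largest share of any array, and the highest in 22%. In CDH1 and EPCAM the arrays numbered 3 stood apart from the others in both groups. CDH1 (E-cadherin) was at 9.40, 9.34 and 7.56 on the control arrays and at 8.78, 9.01 and 7.28 with HMGA1 siRNA, and EPCAM, an epithelial adhesion molecule, was at 8.23, 8.05 and 9.22 and at 7.74, 8.12 and 9.003. In each group the third CDH1 value was thus the lowest and the third EPCAM value the highest. The mesenchymal markers VIM (12.89), CAV1 (13.83) and AXL (13.18) had high control means, and the steroid receptors ESR1 (6.98) and PGR (5.16) low ones. The white blood cell marker PTPRC was at 4.47, with 3.23% of transcripts below it, and CD3E and LYZ were at 5.65 each. CD14, also on the white blood cell list, was at 8.46 with 51.3% of transcripts below it. The luminal keratins KRT8 (12.38) and KRT18 (10.46) were high too, with GATA3 at 8.76. Of the fibroblast markers, COL1A1 (8.61) and COL1A2 (8.75) were above LUM (6.08) and DCN (4.65).

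The promoters of the interferon response genes are shown first, because the ISRE is what most of them share in sequence. The RefSeq table of promoter windows (GRCh38.p14, 250 bases before to 50 bases from the start site on) held 54 windows of 39 of the 52 genes. The ISRE was searched on both strands as TTTC, any 2 bases and TTTC again (GAAA, any 2 bases and GAAA on the other strand). It was found in at least 1 window of 26 of these 39 genes, or 66.7%, against 4.38% of the 27305 genes in the whole table. By window the shares were 55.6% of 54 and 3.57% of 35116. Of other interferon pathway genes, a separate list taken up further on, 48.3% of the 60 with a window held an ISRE. GBP1, left out of the expression values, is counted among the antiviral effectors here. Of these effectors, 21 of 27 with a window held the ISRE, and of the sensors 3 of 6. It was in none of the windows of IFNAR1, IFNGR1, IRF1, IRF9, RIGI, ADAR or TRIM25, nor of the effectors IFI35, OAS1, HERC6, XAF1, SAMD9L or SP100. The GAS was searched as TTCNNNGAA. It was found in 30.8% of the 39 genes, against 23.3% of the 60 other pathway genes and 9.38% of genes in the table. Of 13 different GAS matches, 3 overlapped an ISRE match. A match describes letters only and is no evidence of binding in these cells.

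The sites below belong to members whose values are given further on, or to a pair of genes that share a site. Each is written 5′ to 3′ along the strand of its gene, with the matched motif in capitals and 8 bases on either side. HERC5 and IFIH1 held 3 matches each and IFIT1 held 2, and 1 match of each gene is shown. HERC5 (chr4:88456986-88457011, plus strand) carried the match shown at -125 to -116 from the start site, IFIT1 (chr10:89392499-89392524, plus strand) at -116 to -107 and RSAD2 (chr2:6877624-6877649, plus strand) at -145 to -136. In SAMD9 (chr7:93118098-93118123, minus strand) it lay in the opposite orientation at -136 to -127, and in IFIH1 (chr2:162318688-162318713, minus strand) likewise at -21 to -12, while the other IFIH1 matches ran in the orientation of the gene.
HERC5: cattacagTTTCCTTTTCcttttcga
IFIT1: agctttagTTTCACTTTCccctttcg
RSAD2: gtttcaacTTTCAGTTTCacatgtgg
SAMD9: tgagaaatGAAACTGAAAccaaacct
IFIH1: agagaatcGAAACAGAAAccaaagtc

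PARP9 and DTX3L start from opposite strands next to each other, and 1 ISRE (chr3:122564324-122564349) fell in the windows of both, read here from either strand. IRF1 (chr5:132490881-132490905, minus strand) and IRF9 (chr14:24161194-24161218, plus strand) held no ISRE in this window but a GAS, at -124 to -116 and -63 to -55.
PARP9: gcgcaaagTTTCAGTTTCgcttccct
DTX3L: agggaagcGAAACTGAAActttgcgc
IRF1: agcctgatTTCCCCGAAatgacggc
IRF9: cacgtgatTTCTGGGAAaaggccct

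Expression of the 52 genes was then compared between HMGA1 siRNA and control siRNA. None of the 52 passed an adjusted p of 0.05 in limma, where 0% of all transcripts did. With array weights, which called 0.9% of all transcripts, it was again 0. The log2 fold changes ran from -0.50 (APOL6) to 0.49 (RSAD2), with 37 genes above 0 and 15 below. Their median was 0.090, against -0.012 over all transcripts and 0.0060 over the brighter 60% of transcripts, which hold 50 of the 52. Genes above 0 made up 71.2% of the members, 52.3% of the brighter 60% of transcripts and 46.1% of all transcripts. The count of 37 was 32 with array weights or without HMGA1 siRNA replicate 2. At an unadjusted p under 0.05, 4 members were higher (HERC5, SAMD9, OASL and MX2) and 1 lower (APOL6). All HMGA1 siRNA arrays lay above all control arrays in 4 members, where this held for 4.28% of all transcripts, and below them in 4 (IRF2, IFI35, PSMB8 and APOL6), where it held for 3.51%. In either direction these were 8 of 52, where 7.79% of all transcripts had groups that did not overlap. The members share the same arrays and are not independent of each other. A lower value on such an array may come from fewer expressing cells or from less RNA per cell, which cannot be told apart.

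**Figure D1:**
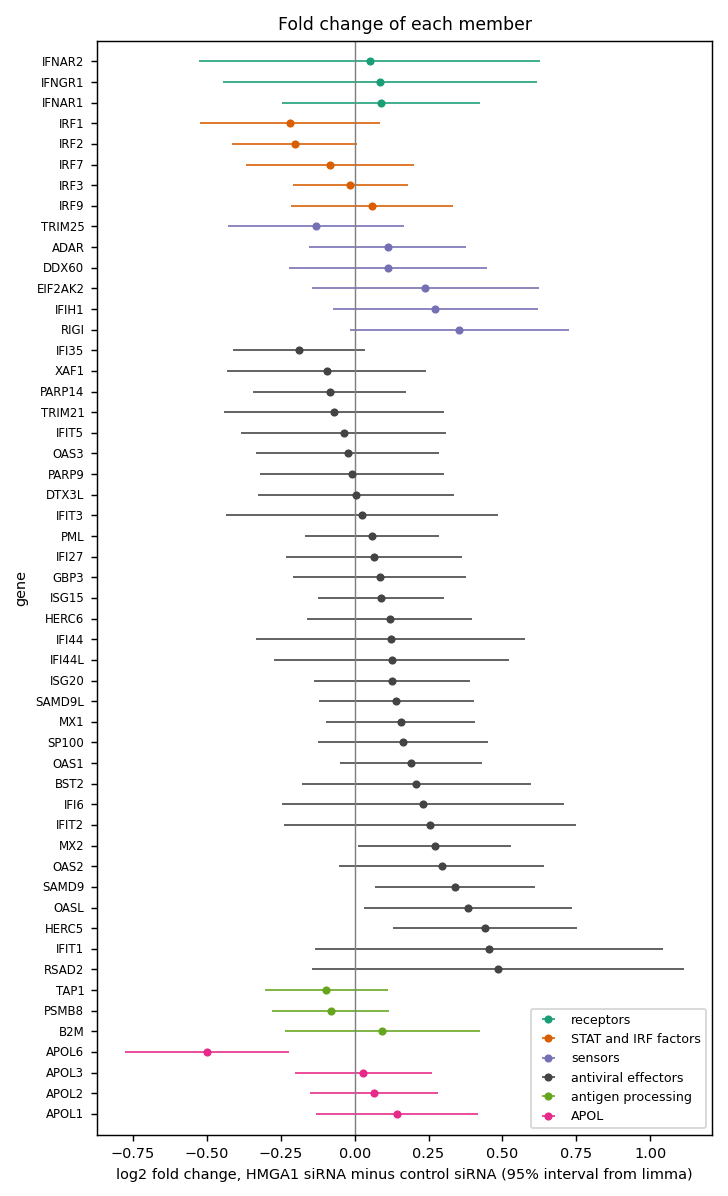
Log2 fold change (HMGA1 siRNA minus control siRNA) of each of the 52 genes, coloured by subgroup, with the 95% interval from limma as whiskers. APOL6 stands at -0.50 on the left, and HERC5, IFIT1 and RSAD2 lie between 0.44 and 0.49 on the right.

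The APOL family encodes proteins related to apolipoprotein L-I, a secreted factor of human serum that kills trypanosomes, and most other members stay inside the cell. APOL6, an intracellular member, was at 8.85, 8.95 and 9.05 on the control arrays and at 8.24, 8.56 and 8.55 on the HMGA1 siRNA arrays. Its lowest control value was thus above its highest HMGA1 siRNA value, and HMGA1 siRNA replicate 1 was the lowest of all. The difference was -0.50 on the log2 scale (SE 0.12, 95% interval -0.78 to -0.22), or 0.707 of the control level, with an adjusted p = 1.00 from limma. APOL6 was also picked by the study from these arrays, so its direction here is not independent evidence.

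The other APOL genes did not share this value. APOL1, which encodes the secreted serum factor, was at 8.25, 8.08 and 8.35 in control cells and 8.23, 8.35 and 8.53 with HMGA1 siRNA. Its groups overlapped, with a difference of 0.14 (SE 0.12) and an interval from -0.13 to 0.42. The APOL1 difference was 0.065 without HMGA1 siRNA replicate 3 and 0.069 without control siRNA replicate 2. APOL2 had 8.06, 7.93 and 7.88 on the control arrays and 8.07, 7.96 and 8.03 on the others, a difference of 0.067 (interval -0.15 to 0.28), or 0.029 to 0.12 with 1 array left out (lowest without control siRNA replicate 3, highest without replicate 1 of that group, and 0.042 without HMGA1 siRNA replicate 1). APOL3 was at 7.10, 7.16 and 7.15 and at 7.06, 7.12 and 7.31, or 0.030 (interval -0.20 to 0.26), and its sign turned without HMGA1 siRNA replicate 3 (-0.045). In both of these genes the groups overlapped, and the spread between arrays was small (SD from 0.031 to 0.13). No test was made of the difference between APOL6 and these genes. APOL4 and APOL5, from a list of other pathway genes, had log2 fold changes of -0.18 (SE 0.12) and -0.073 (SE 0.18). APOL3, APOL4 and APOL5 belonged to the dimmest 40% of transcripts, while APOL1, APOL2 and APOL6 did not. Fold changes of dim transcripts are compressed, so the values of APOL3, APOL4 and APOL5 cannot show that these genes did not respond.

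**Figure D2:**
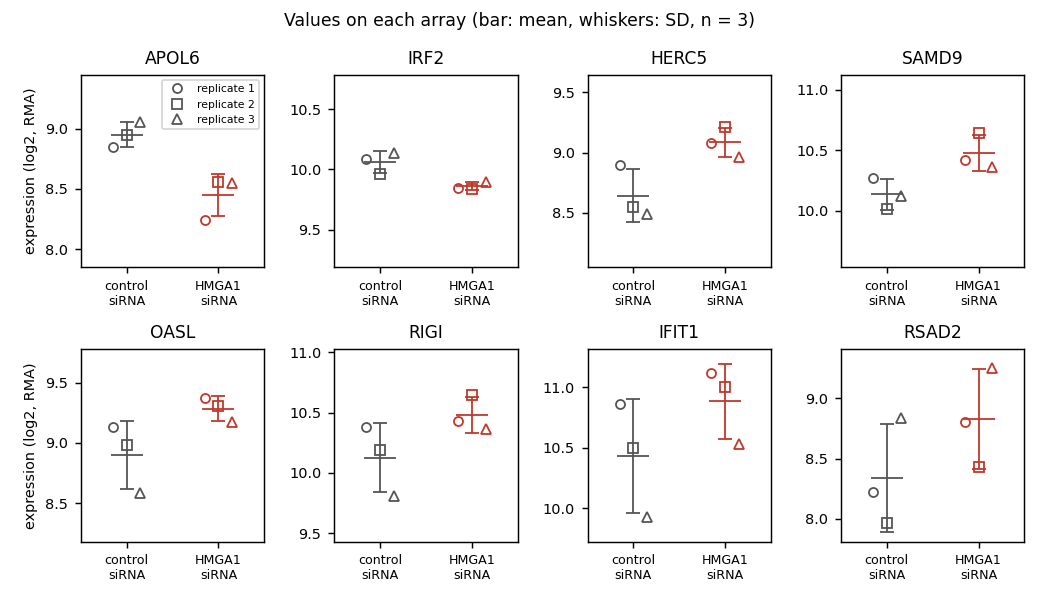
Expression (log2) on each array for 8 genes, with replicate numbers as symbols and the mean and SD (n = 3) as bars, in panels of equal height in log2 units. The groups separate in APOL6, IRF2, HERC5, SAMD9 and OASL and overlap in RIGI, IFIT1 and RSAD2.

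Of the IRF transcription factors, 4 of 5 had lower means with HMGA1 siRNA and the median log2 fold change was -0.083. This median was -0.16 without HMGA1 siRNA replicate 1, -0.0075 without HMGA1 siRNA replicate 2, -0.13 without the first control array and -0.043 without the third. IRF2, which binds the same element as IRF1 and largely represses it, was at 10.09, 9.96 and 10.14 in control cells and at 9.85, 9.83 and 9.90 with HMGA1 siRNA. All HMGA1 siRNA values lay below the controls, with a difference of -0.20 (SE 0.091, interval -0.42 to 0.0095, adjusted p = 1.00 from limma). IRF1, an activator induced by interferon-gamma, was at 9.41, 9.49 and 9.19 and at 9.15, 9.33 and 8.95, a difference of -0.22 (SE 0.13), which was -0.13 without HMGA1 siRNA replicate 3 and -0.45 with array weights. Its groups overlapped, with control replicate 3 the lowest control. IRF7, which amplifies interferon production, was at 8.71, 8.81 and 8.88 and at 8.87, 8.49 and 8.79, or -0.083 (SE 0.12), with HMGA1 siRNA replicate 2 the only low array. IRF3, the factor that the sensors activate, was at -0.014 (interval -0.21 to 0.18), with the smallest SE of the 52 genes. IRF9, which guides STAT dimers to the ISRE, was at 0.058.

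In the subgroup listed as sensors, which also holds ADAR and TRIM25, 5 of 6 were above 0 and the median log2 fold change was 0.18. The median was 0.060 without HMGA1 siRNA replicate 2, 0.12 without control siRNA replicate 3 and 0.27 without HMGA1 siRNA replicate 1. Of 12 other sensors and adaptors, from the separate list of pathway genes, 6 were above 0 and the median was -0.0016. RIGI was at 10.38, 10.19 and 9.81 on the control arrays and at 10.43, 10.65 and 10.36 with HMGA1 siRNA. The groups overlapped in 1 pair of arrays, control replicate 1 against HMGA1 siRNA replicate 3, while control replicate 3 lay well below the rest. The log2 fold change was 0.35 (SE 0.16, interval -0.017 to 0.73), and it was 0.20 without control siRNA replicate 3. IFIH1 was at 8.06, 7.80 and 7.65 and at 8.04, 8.34 and 7.94, a difference of 0.27 (SE 0.15), or 0.18 without control siRNA replicate 3 and 0.16 without HMGA1 siRNA replicate 2. EIF2AK2, the kinase PKR that halts translation on binding double-stranded RNA, was at 9.60, 9.53 and 9.25 and at 9.48, 10.02 and 9.60. Its value of 0.24 (SE 0.16) was 0.079 without HMGA1 siRNA replicate 2 and 0.13 without control siRNA replicate 3. DDX60, a helicase linked to RIG-I signalling, and ADAR, which edits double-stranded RNA, were both at 0.11 and overlapped. TRIM25, a ubiquitin ligase that acts on RIG-I, was the exception at -0.13 (SE 0.13).

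The 31 antiviral effectors had a median log2 fold change of 0.12, with 24 above 0 and 7 below, and the median was 0.20 without control siRNA replicate 1. HERC5, the ligase that attaches the ubiquitin-like ISG15 to proteins, was at 8.89, 8.55 and 8.49 in control cells and at 9.08, 9.21 and 8.97 with HMGA1 siRNA. The groups did not overlap, and the log2 fold change was 0.44 (SE 0.13, interval 0.13 to 0.75, adjusted p = 1.00 from limma), or 1.36 times the control level. SAMD9, which restricts poxviruses, was at 10.27, 10.01 and 10.12 and at 10.42, 10.64 and 10.36. It was higher on each HMGA1 siRNA array than on each control array, with a difference of 0.34 (SE 0.12, interval 0.069 to 0.61). OASL, a relative of the oligoadenylate synthetases without their activity, was at 9.13, 8.98 and 8.59 and at 9.37, 9.30 and 9.17. Its groups were close but did not overlap, and the log2 fold change of 0.38 (SE 0.15) was 0.23 without control siRNA replicate 3. MX2, a GTPase that restricts HIV, had the same order at 0.27 (SE 0.11).

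Relatives of these genes had smaller values than their own counterparts above. Those counterparts were described first for their small p in limma or separated groups, a choice that favours larger values in them. The difference between relatives was not tested. HERC6 was at 0.12 and SAMD9L at 0.14, and ISG15 itself was at 0.090 (SE 0.091, interval -0.12 to 0.30). The oligoadenylate synthetases, whose product activates RNase L, stood at 0.19 for OAS1, 0.30 for OAS2 and -0.023 for OAS3. MX1, which blocks influenza virus, was at 0.16. The groups overlapped in all of these genes.

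RSAD2 and IFIT1, singled out after their values were seen, had the largest positive estimates and the largest SEs. RSAD2 (viperin), an enzyme that makes a chain-terminating nucleotide, was at 8.22, 7.97 and 8.83 and at 8.80, 8.43 and 9.25, a difference of 0.49 (SE 0.27, interval -0.14 to 1.12). Control replicate 3 exceeded 2 of the HMGA1 siRNA arrays. IFIT1, which binds viral RNA that lacks host cap methylation, was at 10.87, 10.50 and 9.92 and at 11.12, 11.00 and 10.53, or 0.45 (SE 0.25, interval -0.14 to 1.04). Here the array numbered 3 was the lowest of each group, and it was the highest in RSAD2. IFIT2, which binds RNA together with other IFIT proteins, was at 0.25, IFIT3, a stabilizing partner of IFIT1, at 0.026 and IFIT5 at -0.038. Among the interferon-induced IFI genes, IFI6 was at 0.23, IFI27, IFI44 and IFI44L were between 0.065 and 0.12, and IFI35 was at -0.19 with all HMGA1 siRNA arrays below all controls.

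The effectors with values near 0 included PARP9, PARP14 and DTX3L. PARP9 and its partner ligase DTX3L, which share the ISRE shown above, were at -0.0097 (interval -0.32 to 0.30) and 0.0047 (interval -0.33 to 0.34). PARP14, an ADP-ribosyltransferase, was at -0.085. Among the remaining effectors, the nuclear body proteins SP100 and PML were at 0.16 and 0.060, the tethering factor BST2 at 0.21, ISG20 at 0.13, the GTPase GBP3 at 0.085, the antibody receptor TRIM21 at -0.071 and XAF1 at -0.094. Members with an ISRE in a window (26) had a median log2 fold change of 0.10, those with a window but no ISRE (13) 0.089, and those with no window in the table (13) 0.060.

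Of the 3 antigen processing genes, 1 was above 0 and 2 were below. TAP1, a subunit of the peptide transporter into the endoplasmic reticulum, was at 10.75, 10.72 and 10.72 on the control arrays and at 10.57, 10.74 and 10.60 with HMGA1 siRNA, a difference of -0.096 (interval -0.30 to 0.11), or -0.063 without HMGA1 siRNA replicate 1 and -0.15 without replicate 2 of that group. PSMB8, a subunit of the immunoproteasome, was at 8.28, 8.31 and 8.23 and at 8.13, 8.22 and 8.22, or -0.081 (interval -0.28 to 0.12). The PSMB8 groups did not overlap, with SDs of 0.037 and 0.050, and the difference was -0.052 without HMGA1 siRNA replicate 1. B2M, the light chain of MHC class I, was at 11.40, 11.50 and 11.69 and at 11.36, 11.73 and 11.78, with a difference of 0.093 (interval -0.24 to 0.42). Its spread was wider (SDs 0.15 and 0.23). Leaving out 1 array moved the B2M difference to between 0.016 (without HMGA1 siRNA replicate 3) and 0.23 (without HMGA1 siRNA replicate 1), with every array except control siRNA replicate 2 moving it by over 1.5 times.

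The receptor chains varied most between arrays of a group, with a median SD of 0.356 against 0.169 over all members. IFNAR1 was at 9.68, 9.80 and 9.52 and at 9.54, 10.02 and 9.72, a difference of 0.089 (SE 0.14). IFNAR2 was at 8.67, 8.63 and 7.998 and at 8.30, 8.94 and 8.20, or 0.050 (SE 0.25). IFNGR1 was at 8.50, 8.23 and 8.93 and at 8.26, 8.69 and 8.97, or 0.086 (SE 0.23). The groups overlapped in all 3 genes, and the direction of each turned when single arrays were left out.

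**Figure D3:**
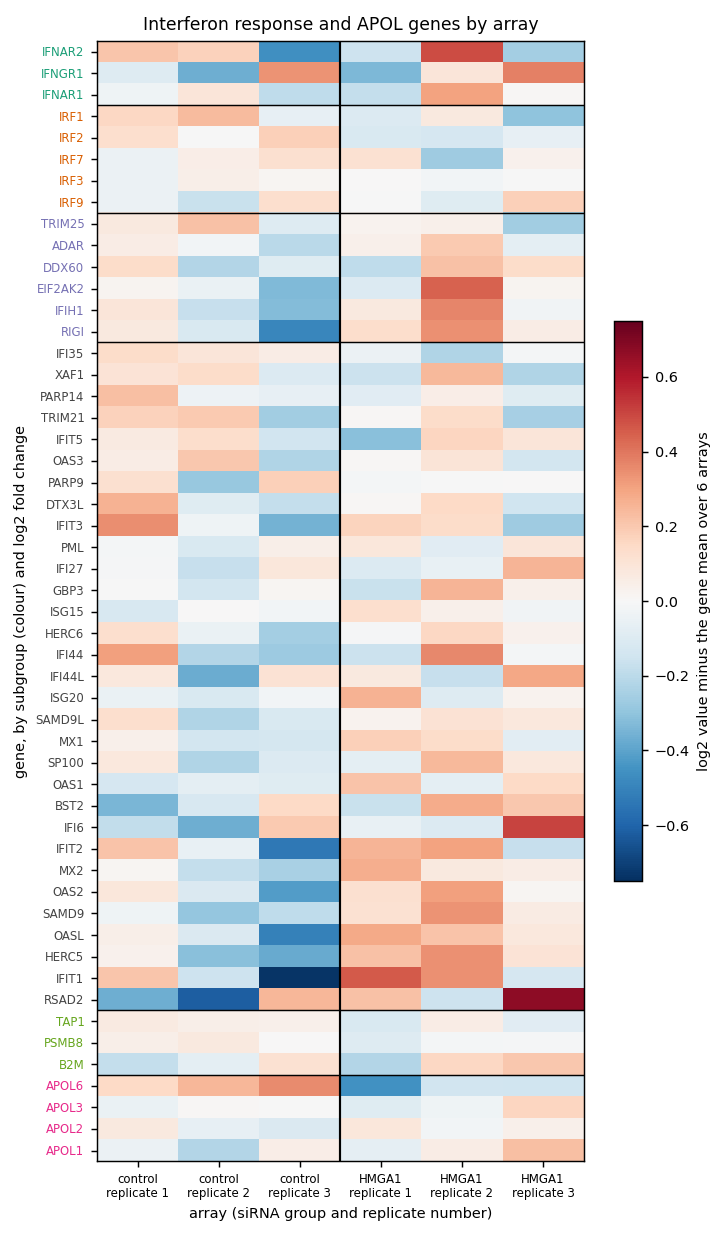
Log2 value of each gene minus its mean over 6 arrays, with genes in rows by subgroup (label colour, black lines: receptors, STAT and IRF factors, sensors, antiviral effectors, antigen processing, APOL) and arrays in columns. IFIT1, IFIT2, OASL and RIGI are lowest on control siRNA replicate 3, and RSAD2 and IFI6 are highest on HMGA1 siRNA replicate 3.

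The genes also differed between arrays of the same group. Of the 52 genes, 19 (36.5%) had their lowest value on control siRNA replicate 3 and 15 (28.8%) on control siRNA replicate 2, against 18.4% and 12.1% of all transcripts and 24.9% and 13.3% of the brighter 60%. The highest value fell on HMGA1 siRNA replicate 2 in 18 genes (34.6%), against 22% of all transcripts and 29.2% of the brighter 60%. The lowest value fell on that array in 3 genes (5.77%), against 37.7% of all transcripts and 28.2% of the brighter 60%. In 18 genes the array numbered 3 was the lowest of its group in both groups (34.6%, against 18% of all transcripts and 24.7% of the brighter 60%). These were RIGI, IFIH1, ADAR and TRIM25 among the sensors, IFNAR2 and IRF1, and 12 effectors that include IFIT1, IFIT2, IFIT3, OAS2, OAS3, OASL, MX2 and HERC5. In 11 genes (21.2%, near the 16.4% of all transcripts and 18.6% of the brighter 60%) it was the highest in both groups, among them RSAD2, IFI6, IFI27, IFI44L, IFNGR1, IRF9, B2M and APOL1.

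As a median over genes, the IFIT family deviated from its 6-array mean by 0.21, -0.045 and -0.45 on the control arrays and by 0.21, 0.23 and -0.15 on the HMGA1 siRNA arrays. The sensors stood at 0.075, -0.083 and -0.26 and at 0.034, 0.28 and -0.0034, and the effectors at 0.067, -0.12 and -0.11 and at 0.027, 0.14 and 0.030. In each of these lists control replicate 1 lay within the range of the HMGA1 siRNA arrays. The median over all 52 genes was 0.061, -0.082 and -0.096 in control cells and -0.0014, 0.10 and 0.025 with HMGA1 siRNA, so the groups overlapped. With 1 array left out the median log2 fold change of the members ran from 0.058 (without control siRNA replicate 2) to 0.13. The part of the replicate number in these values was not tested.

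Other genes of the interferon pathway, taken from a list of 79 that does not overlap the members, had a transcript annotated to them alone in 66 cases. None passed an adjusted p of 0.05 in limma, 32 were above 0 and 34 below, and the median log2 fold change was -0.0085. The 5 interferon ligands measured were all above 0 with a median of 0.068, and IFNB1, the interferon that most cell types make first, was at 0.068 (SE 0.096). All 5 belonged to the dimmest 40% of transcripts. CXCL10, a chemokine induced by interferon, was at 5.88, 5.78 and 5.66 on the control arrays and at 6.40, 6.45 and 5.83 with HMGA1 siRNA, a difference of 0.45 (SE 0.17). HMGA1 siRNA replicate 3 fell within the control range, and CXCL10 also belonged to the dimmest 40% of transcripts. The related CXCL11 was at 0.61 with a SE of 0.41. SOCS1, the feedback inhibitor of JAK kinases, was at 8.25, 8.21 and 8.50 and at 7.97, 7.80 and 8.25, or -0.31 (SE 0.14), and TAP2, the partner of TAP1, was at -0.25 (SE 0.11) with all HMGA1 siRNA arrays below the controls. The kinase JAK1 was at 0.14 (SE 0.090) with all of them above. Of the 66, all HMGA1 siRNA arrays lay above all controls in 1 (JAK1) and below them in 2 (TAP2 and TRIM14). Over all transcripts this held for 4.28% and 3.51%. TRIM14 was at -0.20 (SE 0.099).

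**Figure D4:**
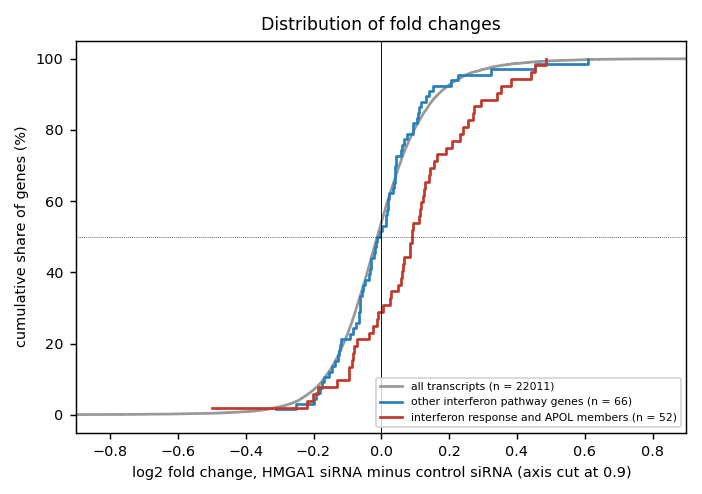
Cumulative share of genes (%) by log2 fold change (HMGA1 siRNA minus control siRNA) for the 52 members, 66 other interferon pathway genes and 22011 transcripts. The curve of the members crosses 50% at 0.090, and those of the other pathway genes and of all transcripts at -0.0085 and -0.012.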

How the data were processed

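RNA of 6 samples was measured, 3 with control siRNA and 3 with HMGA1 siRNA. Values for 22011 transcripts were deposited on the log2 scale. Per the submitters' processing notes the authors used RMA, which corrects background, equalizes arrays and summarizes the probes of a transcript, and the oligo package. The notes also name hg18 and limma, and versions are not given in the sources used here. RMA leaves background signal, so fold changes of dim transcripts are compressed. The number of arrays limits the precision, and intervals (95%) come from limma.

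Transcripts were named from the platform annotation, updated through Entrez IDs to RefSeq symbols (GRCh38.p14). Of the transcripts, 14432 list 1 gene symbol, 2408 several and 5171 none, and 14430 of the first matched a current symbol. No member had more than 1 transcript of its own. Values were compared in R 4.3.3 with limma 3.58.1 (lmFit, eBayes, two-sided, no covariates), and p-values were adjusted by Benjamini-Hochberg across the whole table. The limma fit was tested on simulated data with independent values on each array. No effect shared between arrays was simulated, and the recovery of small shifts is not given here. The members and lists were chosen with earlier results of these data known.

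The value on every array is given for up to 3 members per subgroup with the smallest p, for those whose groups do not overlap at a log2 fold change of at least 0.3 in size, and for all APOL genes. Promoters were searched in Python 3.11.15. Other members and pathway genes given with values were named after their values were seen. Alternatives were array weights, a replicate block, a threshold of 0.10, quantile normalization, centring on array medians, a filter on the dimmest 40%, a prior with trend and robust set, only transcripts with 1 symbol, the mean over a gene's transcripts, and leaving out each array or both arrays of number 3.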

Additional observations from a re-analysis of the deposited data

How the results depend on the processing

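None of the 52 genes passed an adjusted p of 0.05 in limma under the main setting, under 14 other fits or at a threshold of 0.10 in the main fit. The fit without the dimmest 40% of transcripts held 50 of them. Over all transcripts the number that differed was 0 in the main fit and 198 (0.9%) with array weights, where HMGA1 passed too (log2 fold change -0.46, adjusted p = 0.0376). In that fit the weight of HMGA1 siRNA replicate 3 was 6.80, against 0.275 to 2.21 for the others. With array weights the named members under an adjusted p of 0.10 were APOL6 at -0.40, IRF1 at -0.45, APOL1 at 0.34, HERC5 at 0.34 and SAMD9 at 0.27. Over the 14 fits their adjusted p ran up to 1.00 from 0.0524, 0.0543, 0.0750, 0.0920 and 0.0969, in that order, each lowest with array weights. The same weights moved IFNGR1 to 0.52, B2M to 0.26, OASL to 0.21, RIGI to 0.18, IFIH1 to 0.10, EIF2AK2 to 0.097, APOL3 to 0.16, IRF2 to -0.13 and IRF7 to -0.0059. Replicate numbers were checked as pairs by the correlation of deviations from group means over transcripts (-0.201, 0.255 and 0.533 for numbers 1, 2 and 3), and the samples were not taken as paired. With the replicate block 0 transcripts were called, as without it. In this balanced design the block cannot move a fold change, so the members' median of 0.090 and HMGA1 at -0.50 are the same by construction.

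The members' median ran from 0.058 to 0.13 over all settings. Directions turned for IFNAR1 with array weights (-0.0028), for IFNAR2 with array weights (-0.32) and without both arrays of number 3 (-0.026), and for APOL3 without both (-0.038). With 1 array left out the log2 fold change ran from -0.039 to 0.20 for IFNAR1, from -0.18 to 0.19 for IFNAR2, from -0.080 to 0.28 for IFNGR1, from -0.16 to 0.031 for IRF7 and from -0.045 to 0.081 for APOL3. The cause of these changes was not tested. The median of the APOL genes was -0.0063 without both arrays of number 3. Averaging several transcripts of a gene changed nothing, since each member had 1.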
